A study of Mus musculus with 4 samples.

Results

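The targets described here were probes of a mouse expression array that carried no RefSeq accession and an identifier of the form given to RIKEN full-length cDNA clones. They were chosen as the probes, control spots left out, whose identifier was AK followed by 6 digits. GenBank gave accessions of this form to the cDNAs that the RIKEN institute cloned and sequenced, but the letters alone do not show the origin of a clone. This rule found 2497 of the 55681 different probes of the array, or 4.48%, on 2515 spots. Each probe is called an AK target below. The targets carried 2457 accessions, since 35 accessions had more than 1 target. A further 26536 probes carried an NM accession, which marks a RefSeq mRNA.

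The 4 groups were offspring of C57BL/6J dams and are labelled Sham male and Sham female for the unexposed, and TiO2-H male and TiO2-H female for the exposed. Sham dams received 25 μL of vehicle into the trachea, and TiO2-H dams received the same volume of a suspension of titanium dioxide nanoparticles, 100 μg per mouse (labelled 4 μg/L, whereas the methods write the same figure per μL). The sample protocol gave gestational day 10.5 for the exposure and the sample descriptions gave day 14. Whole brain was taken at postnatal day 1, and RNA of 2 offspring per dam was pooled from 5 Sham or 6 TiO2-H dams and hybridized to 1 one-color array per group. The pools average over litters, so no value shows the spread between animals. By the paper's count of dams, the male and female pools of an exposure came from the same 5 or 6 dams. The difference between these pools thus holds no spread between sets of dams. All arrays lay on 1 slide, with the Sham arrays in one row and the TiO2-H arrays in the other, so that exposure, litters and row of the slide cannot be told apart. In a bulk sample, fewer cells that hold a transcript and less of it per cell cannot be told apart either.

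RIKEN cDNA clones were collected to obtain whole transcripts rather than fragments, from many mouse tissues including the developing brain. Many of them were not taken up as RefSeq mRNAs, for example those with no clear reading frame, those that end inside an intron, and rare versions of a gene. A clone may therefore report a long noncoding RNA, an alternative first or last exon, a retained intron, or an unspliced precursor. The developing brain is known as a tissue with many noncoding and alternatively spliced transcripts.

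The files gave the accession of each target but no gene name, description or sequence. A gene symbol could be given only to 69 of the 2497 targets, or 2.76%, through a list that the study had drawn up from the male TiO2-H and Sham arrays and through the RefSeq gene table. Since that list was chosen by the difference on those arrays, the named targets are no independent evidence of its direction or size. The other 2428 targets are given by accession. No sequence is shown, because none of the files used here holds the sequences of these clones or of their probes, and no position is given, because the array's build (mm9) is not that of the gene table (GRCm38.p6).

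The sex labels of the TiO2-H arrays went against sex-linked genes. Xist, a noncoding RNA made from the silenced X chromosome, had a signal of 276 on the female Sham array and 347 on the male-label TiO2-H array, against 17.9 and 5.36 on the male Sham array and the female-label TiO2-H array. The Y-linked translation factor gene Eif2s3y had 3519 and 419 on the male and female Sham arrays, 6.40 on the male-label TiO2-H array and 4345 on the female-label TiO2-H array. Ddx3y, the Y-linked gene of an RNA helicase, had 1418, 142, 7.18 and 1783 in the same order. Both Y-linked genes were thus well above background on the female Sham array too, at a lower level than on the male Sham array, so that its label was also partly at odds with them. The exposed arrays are called male-label and female-label TiO2-H below for that reason, and arrays were also paired across the labels. The male-label contrast sets the male-label TiO2-H array against the male Sham array, and the female-label contrast sets the female-label TiO2-H array against the female Sham array. Where 4 values follow each other, their order is male Sham, female Sham, male-label TiO2-H and female-label TiO2-H, and a pair of log2 ratios is that of the male-label and then the female-label contrast. The defining markers of neurons, such as Tubb3 (79357 to 83610), and of astroglia, such as Fabp7 (65773 to 86625), were well above background on all 4 arrays. So were the skeletal muscle markers Acta1 (565 to 675) and Myh3 (93.2 to 149). The liver marker Alb was not, on any array. Gh, the growth hormone gene of the pituitary, was well above background on the male-label TiO2-H array only, at 301 against 4.76 to 11.2 on the others. Pomc, also a pituitary gene, was at 956 there and between 570 and 590 elsewhere. Their part in the results on that array was not tested.

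A smaller share of AK targets than of RefSeq mRNAs gave a signal, and the share was higher on both TiO2-H arrays. A target was called detected where the scanner software marked it as well above background. This held for 45.7% of AK targets on the male Sham array (1142 targets), 43.8% on the female Sham array (1093), 49.2% on the male-label TiO2-H array (1229) and 52.5% on the female-label TiO2-H array (1310). For RefSeq mRNAs the shares were 73.3%, 72.7%, 74.9% and 76.3% on the same arrays, and for all targets 55.7%, 54.9%, 58.2% and 60.0%. The order of the arrays was the same in the 3 sets, with the female Sham array lowest and the female-label TiO2-H array highest. The lowest signal called detected was 30.4 and 31.7 on the male and female Sham arrays, 29.5 on the male-label TiO2-H array and 23.3 on the female-label TiO2-H array. With the highest of these as a common limit, the last array detected 50.0% of AK targets and 75.3% of RefSeq mRNAs.

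**Figure D1:**
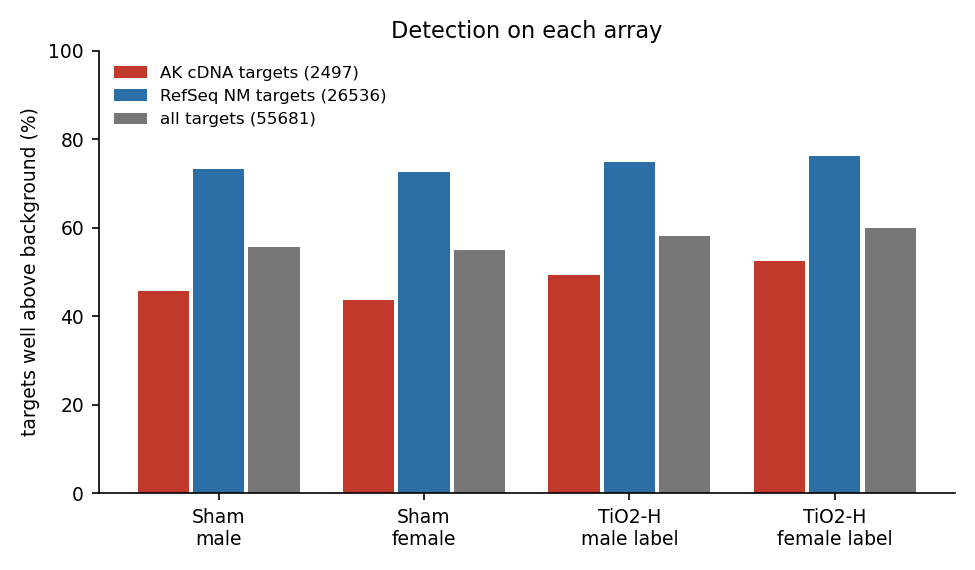
Share of targets well above background (percent, y axis) on each of the 4 arrays (x axis), for the 2497 AK targets, the 26536 RefSeq NM targets and all 55681 targets, 1 bar per array. AK targets lie between 43.8% and 52.5%, below RefSeq targets on every array, and both TiO2-H arrays lie above both Sham arrays in each set.

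Of the AK targets, 1034 (41.4%) were detected on all 4 arrays, 1068 (42.8%) on none, 222 on 1 array, 103 on 2 arrays and 70 on 3 arrays. Among RefSeq mRNAs, 71.3% were detected on all 4 arrays and 21.3% on none. Targets of Ensembl transcripts without RefSeq resembled the AK targets, with 42.8% on all arrays and 43.3% on none. Of the AK targets detected on a single array, 113 were seen on the female-label TiO2-H array, 45 on the male-label TiO2-H array, 41 on the male Sham array and 23 on the female Sham array. These were 4.53%, 1.80%, 1.64% and 0.921% of AK targets, where 2.98%, 1.65%, 1.07% and 0.968% of all targets were seen on the same single arrays, in the same order of arrays.

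AK targets were dim. Signals were put on a log2 scale relative to the 75th percentile of each array (810, 795, 867 and 871 on the 4 arrays), so that 0 is the signal of that percentile. Over the 1034 AK targets detected on all arrays, the median scaled log2 signal was −2.30 and −2.25 on the male and female Sham arrays and −2.15 on each TiO2-H array. The median processed signals behind these values were 165, 168, 196 and 196. RefSeq mRNAs detected on all arrays had medians between 0.24 and 0.26 on the same scale, or processed signals of 961, 939, 1032 and 1041. Only 158 of the 1034 AK targets (15.3%) reached the RefSeq median, and 182 (17.6%) lay above the 75th percentile, against 53.1% of RefSeq mRNAs. The brightness of a probe also depends on its sequence, so these medians compare sets of probes rather than amounts of RNA.

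A few AK targets were among the bright probes of the array. AK030082 led with 256190, 244320, 262270 and 262860 on the 4 arrays. AK132518, AK007267, AK016424, AK136409 and AK016943 followed, with signals between 100980 and 145890. Their log2 ratios of TiO2-H over Sham lay between −0.16 and 0.13 under both labels, within the error of about 0.20 that the scanner software's own error estimate gives to a ratio of bright spots.

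The question of the study was whether prenatal exposure to the nanoparticles alters expression in the brain of the offspring. It was asked here within each sex label as the log2 ratio of TiO2-H over Sham, with the study's thresholds of 1.5-fold and 0.67-fold. A single array per group allows no test within a label. AK targets leaned upward, most in the male-label contrast. There, 66 of the 1034 AK targets detected on all arrays (6.38%) were at or above 1.5-fold, where 1.81% of all 29406 targets so detected were. A further 12 AK targets (1.16%) were at or below 0.67-fold, near the 1.06% of all targets. The median log2 ratio of AK targets was 0.10, with a robust SD over targets of 0.25, whereas the median was 0.01 for all targets and −0.00080 for RefSeq mRNAs.

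In the female-label contrast, 32 AK targets (3.09%) were at or above 1.5-fold, and 18 (1.74%) reached 0.67-fold or less, where 1.15% and 1.23% of all targets were. The median log2 ratio of AK targets was 0.07 (robust SD 0.22), and it was 0.01 for all targets and for RefSeq mRNAs. The counts for RefSeq mRNAs were 0.904% and 0.730% in the male-label contrast, and 0.793% and 0.883% in the female-label contrast. Both Sham arrays compared with each other give the background of 2 unexposed pools of the same dams, 1 of which held the Y-linked signals noted above. That background leaves out the spread between dams. In Sham female over Sham male, 24 AK targets (2.32%) were at or above 1.5-fold, and 14 (1.35%) reached 0.67-fold or less, where 1.1% and 1.11% of all targets were, and the AK median was 0.04 (robust SD 0.18), with a RefSeq median of −0.0088. The AK median thus stood above the RefSeq median by 0.106 in the male-label contrast, 0.055 in the female-label contrast and 0.047 between the Sham arrays, so that the last 2 differences were close. Between the TiO2-H arrays, 13 AK targets (1.26%) were at or above and 11 (1.06%) at or below the thresholds, where 0.558% and 1.04% of all targets were, with an AK median of −0.01. Targets named by a chromosomal region had medians of 0.05 and −0.01 in the male-label and female-label contrasts, and Ensembl-only targets had 0.0018 and −0.0057. These comparisons share arrays, and the difference between their counts was not tested.

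**Figure D2:**
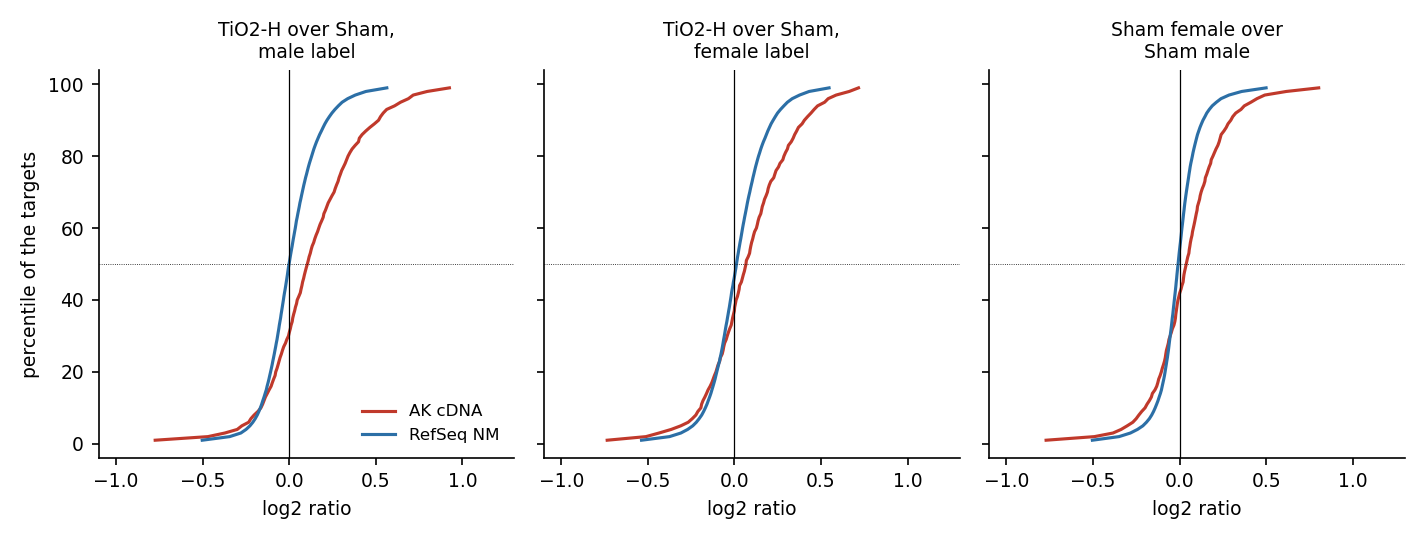
Percentile of the targets (y axis) against their log2 ratio (x axis) for AK targets (1034) and RefSeq NM targets (18913) detected on all 4 arrays, for TiO2-H over Sham within each sex label and for Sham female over Sham male; each curve runs from the 1st to the 99th percentile. The AK curve is moved to the right of the RefSeq curve at its middle in all 3 panels, by 0.106 in the male-label contrast, 0.055 in the female-label contrast and 0.047 between the Sham arrays.

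Pairing the arrays across the sex labels is no separate check on the upward lean. It regroups the same arrays, and the mean of the 2 log2 ratios of a target is the same under either pairing. With arrays paired across the labels, the median of AK targets was 0.11 for the female-label TiO2-H array over Sham male and 0.08 for the male-label TiO2-H array over Sham female. Ratios to the male Sham array were the higher ones under either pairing. Under a normexp background correction of the median signals, the AK medians of the 2 contrasts were 0.065 and 0.026, and those of all targets 3.68e-05 and −0.0068. At or above 1.5-fold were 16 and 8 AK targets. The correction adds an offset of 50 to each signal, which draws the ratios of dim targets toward no change. With dim targets included and no filter, 276 AK targets in the female-label contrast were at or above and 557 at or below the thresholds. These counts include ratios of the small positive values that the software gives to spots not above the background. Over all AK targets, the lower quartile of the scaled log2 signal was −6.60 on the female Sham array and −7.10 on the female-label TiO2-H array. Among targets detected on all arrays, the balance in that contrast turned with 2-fold thresholds, with 6 above and 8 below. Counts over all targets were not computed under these alternatives.

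In the TiO2-H contrasts dim AK targets were shifted more than bright ones, and in each range of brightness the AK median lay above the RefSeq median. The targets were divided by their mean scaled log2 signal at −3, −2, −1 and 0, limits chosen after the data were seen. Below −3, the median log2 ratio in the male-label contrast was 0.16 for 347 AK targets and 0.06 for 2119 RefSeq mRNAs, while it was 0.11 for 1707 targets named by a chromosomal region and 0.09 for 330 Ensembl-only targets. In this contrast, part of the difference from RefSeq in this range was thus shared by other targets without RefSeq. In the same range, 10.7% of AK targets were at or above 1.5-fold, against 5.05% of RefSeq mRNAs, 7.26% of targets named by a region and 7.27% of Ensembl-only targets. From −3 to −2 it was 0.18 for 218 AK targets and 0.04 for RefSeq mRNAs, and from −2 to −1 it was 0.11 for 169 AK targets and 0.02 for RefSeq mRNAs. At 0 and above, it was 0.03 for 182 AK targets and −0.01 for RefSeq mRNAs. In the female-label contrast, the AK median went from 0.13 below −3 to 0.01 at 0 and above, and the RefSeq median from 0.04 to 0.00. Below −3 in that contrast, the median was 0.02 for targets named by a region and 0.04 for Ensembl-only targets, not above RefSeq. Between the Sham arrays, AK medians lay between 0.02 and 0.07 in the 5 ranges and RefSeq medians between −0.0113 and −0.00123, with no steady course over brightness.

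**Figure D3:**
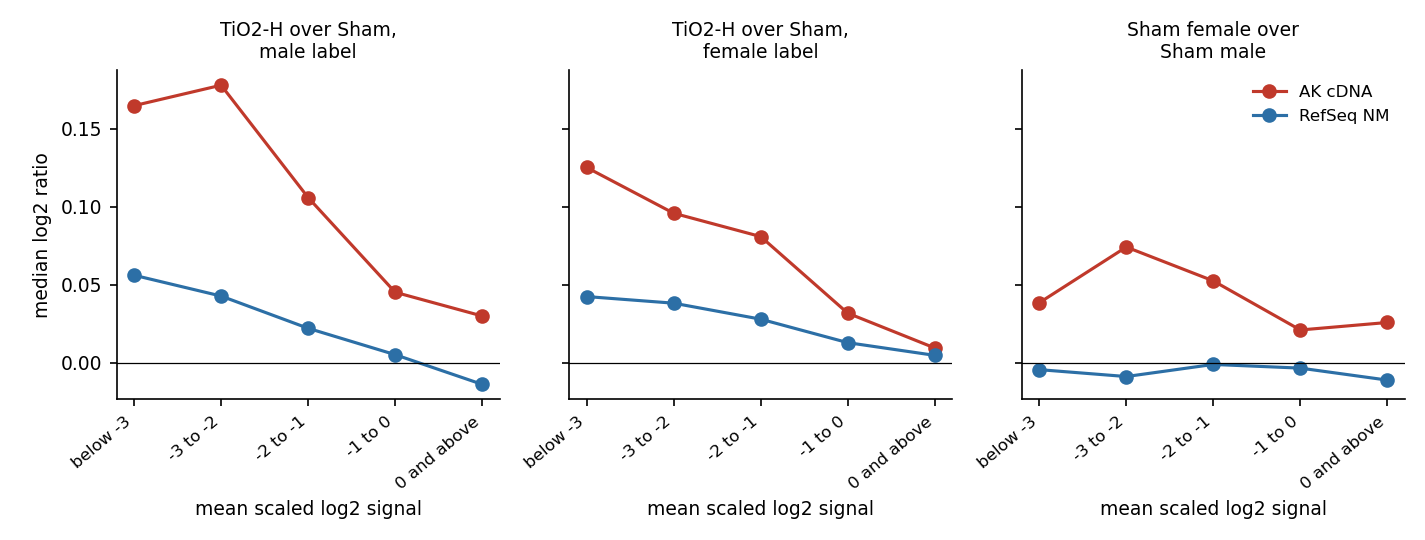
Median log2 ratio (y axis) of AK and RefSeq NM targets detected on all 4 arrays, in 5 ranges of their mean scaled log2 signal (x axis), for TiO2-H over Sham within each sex label and for Sham female over Sham male. In every panel, that of the Sham arrays included, the AK points lie above the RefSeq points. In the male-label panel they go from 0.16 to 0.18 in the second range and then down to 0.03, and in the female-label panel from 0.13 down to 0.01.

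Both sex labels leaned the same way for many AK targets. The log2 ratio was above 0 under both labels for 521 of 1034 AK targets (50.4%) and below 0 under both for 189 (18.3%), whereas RefSeq mRNAs were above 0 under both in 36.2% and below 0 in 32.8%. Both TiO2-H arrays lay above both Sham arrays for 440 AK targets (42.6%), where 28.9% of all targets did so, and below both for 131 (12.7%), where 25.8% did so. Across the 1034 AK targets, the ratios of the 2 labels had a Pearson's r of 0.19 and a Spearman's rho of 0.42. These points share 4 arrays and their scaling, and targets are not independent replicates, so the values are a description only.

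Both TiO2-H arrays were then tested against both Sham arrays with limma over all 29406 targets. No AK target and 0% of all targets passed an adjusted p of 0.05 after Benjamini-Hochberg adjustment, where AK targets reached 0.221 at the lowest. At an unadjusted p under 0.05, 241 AK targets (23.3%) were higher in TiO2-H, where 11.5% of all targets were, and 40 (3.87%) were lower, where 6.69% were. The median limma log2 difference was 0.09 for AK targets and 0.01 for RefSeq mRNAs, and 694 AK targets (67.1%) had a difference above 0. An exact permutation of 2 arrays against 2 cannot give a two-sided p below 0.333, so no single target can be tested that way.

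Under both labels, 8 AK targets (0.774%) were at or above 1.5-fold, where 0.187% of all targets were, and 1 (0.0967%) was at or below 0.67-fold, where 0.0748% were. Among Ensembl-only targets, 8 of 1377 (0.581%) were at or above 1.5-fold under both labels, a share near that of AK targets. Under the normexp background correction none of either kind was past the threshold. That correction adds an offset of 50 to each signal, which draws the ratios of dim targets toward no change. Its outcome is therefore no check on the dim targets among them. AK052609 was the brightest of the 8 (chosen after their values were seen). Its signals were 659 and 670 on the male and female Sham arrays, 1095 on the male-label TiO2-H array and 1175 on the female-label TiO2-H array. Both TiO2-H arrays lay above both Sham arrays, and the arrays of the same exposure were close. The log2 ratios were 0.64 and 0.68 (error 0.21 each), and the limma log2 difference was 0.66 ± 0.06 (SE, adjusted p = 0.221).

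The largest common increases belonged to dim targets. AK038100 had signals of 47.6, 37.8, 90.4 and 80.8 on the 4 arrays, with log2 ratios of 0.83 and 0.96 (errors 0.30 and 0.34 by the scanner software's estimate). AK047818 had 35.1 and 38.6 on the Sham arrays, and 83.7 and 68.9 on the male-label and female-label TiO2-H arrays, with ratios of 1.16 and 0.71. AK036290 had 36.3 and 38.8 against 72.8 and 70.1. In these 3 targets the Sham signals lay just above the lowest signal called detected, and the groups did not overlap. AK049485 went from 38.0 and 43.5 to 76.4 and 75.5 in the same order. AK030294 went from 90.1 and 103 to 157 and 182, and AK013795 from 109 and 115 to 199 and 198. For AK013795, the limma log2 difference was 0.71 ± 0.06 (SE, adjusted p = 0.221). AK012274, the last of the 8, had 55.5, 44.3, 101 and 75.9.

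The largest common decrease was that of AK163481, named Kdm5b, the gene of a demethylase that removes methyl groups from histone H3. Its signals were 99.2 and 224 on the male and female Sham arrays, and 56.5 and 55.6 on the male-label and female-label TiO2-H arrays. The Sham arrays thus differed from each other by more than the male Sham array differed from either TiO2-H array. The brightest RefSeq probe of Kdm5b had 16772, 16781, 17617 and 17649, and its log2 ratios were −0.03 and −0.06, against −0.91 and −2.14 for AK163481. AK018745 was the brightest of the 6 targets with the largest common decreases and did not reach 0.67-fold under both labels. It had 4968 and 4849 on the Sham arrays and 4203 and 3799 on the TiO2-H arrays, and its limma log2 difference was −0.41 ± 0.07 (SE, adjusted p = 0.221). AK016268 (94.6, 127, 73.0 and 90.7), AK038322 (63.2, 64.1, 54.4 and 52.2) and AK037200 (55.6, 59.3, 49.1 and 50.5) were dim and did not reach 0.67-fold under both labels. AK034506, which also ranked here, had 1118 on the male Sham array and between 60.7 and 82.5 on the others.

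**Figure D4:**
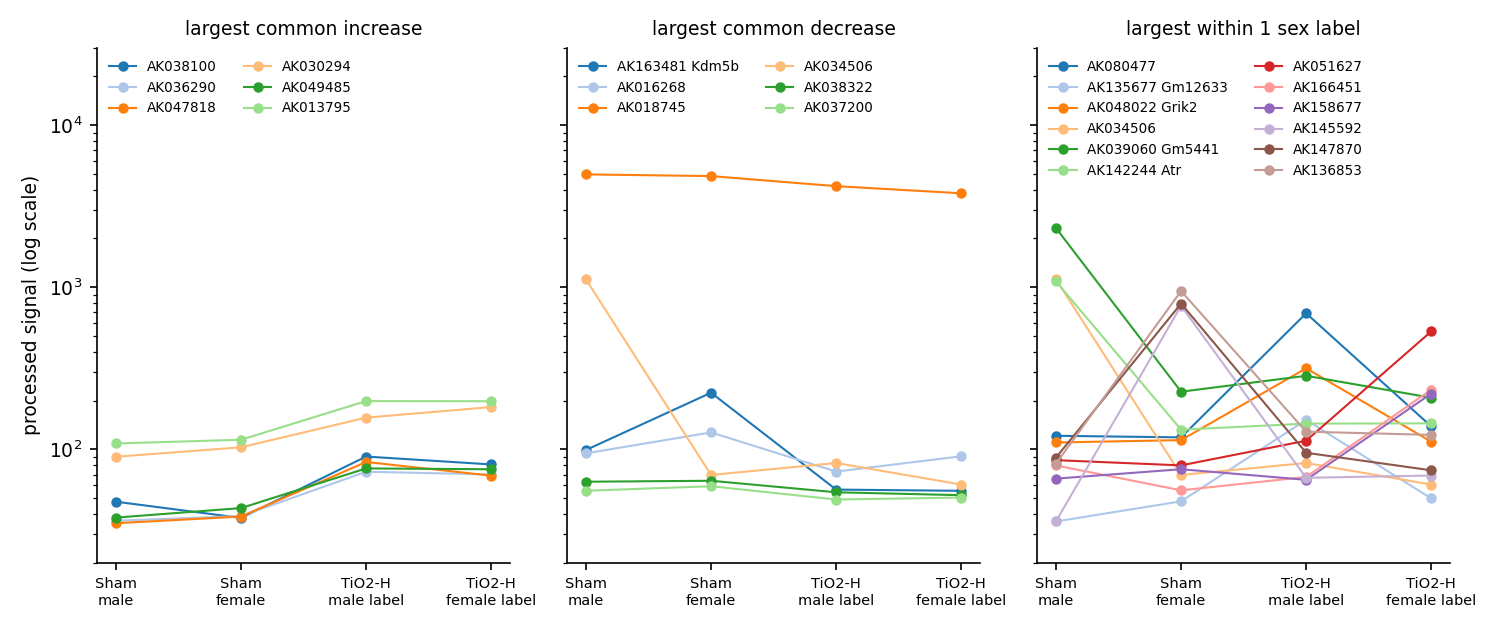
Processed signal (y axis, log scale) on the 4 arrays (x axis) of the AK targets with the 6 largest increases and the 6 largest decreases common to both sex labels, and the 3 largest increases and 3 largest decreases within each label; each point is 1 array and a line joins the points of 1 target. In the left panel (increases) both TiO2-H arrays lie above both Sham arrays for each of the 6 targets. In the middle panel (decreases) AK018745 goes from 4968 and 4849 to 4203 and 3799, and AK163481 and AK034506 stand high on 1 Sham array, and in the right panel (within 1 label) single arrays stand apart.

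The largest differences within a label came from single arrays. In the male-label contrast, AK080477 had 691 on the male-label TiO2-H array and 121, 119 and 139 on the male Sham, female Sham and female-label TiO2-H arrays. AK135677, named Gm12633 and listed as a transcribed pseudogene, had 152 there and 36.0, 47.9 and 49.8 on the others. AK048022, named Grik2, the gene of a subunit of the kainate glutamate receptor, had 316 there and between 110 and 114 on the others. Each of the 3 stood high on the array that also held the signals of Gh and Pomc given above. The RefSeq probes of Grik2 had a mean log2 ratio of 0.33 in the male-label contrast, against 1.42 for AK048022, and of 0.20 in the female-label contrast, against −0.16.

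The largest decreases in the male-label contrast were high signals of the male Sham array. AK034506 is given above. AK039060, named Gm5441 and listed as a long noncoding RNA, had 2318 on the male Sham array and between 208 and 285 on the others. AK142244, named Atr, the gene of a kinase of the DNA damage response, had 1087 on the male Sham array and 132, 144 and 145 on the others. The RefSeq probe of Atr had signals of 1284, 1399, 1532 and 1699 and log2 ratios of 0.16 and 0.15, so that the high signal of AK142244 on the male Sham array was not shared by the RefSeq probe. Of the 12 AK targets at or below 0.67-fold in the male-label contrast, 9 were at least 1.5-fold higher on the male Sham array than on each of the other 3, as were 207 of the 313 targets of the whole array with such a decrease.

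In the female-label contrast, AK051627 had 534 on the female-label TiO2-H array and between 79.7 and 113 on the others. AK166451 (234 against 56.0 to 79.6) and AK158677 (221 against 64.9 to 75.5) showed the same pattern. Decreases were led by AK145592, with 769 on the female Sham array and between 36.0 and 69.1 on the others, AK147870, with 793 against 74.3 to 95.3, and AK136853, with 948 against 81.8 to 129. Of the 18 AK targets at or below 0.67-fold on these arrays, 10 were so raised on the female Sham array alone, as were 177 of 362 of all targets. Of the 66 and 32 AK targets at or above 1.5-fold in the male-label and female-label contrasts, 9 and 9 were raised on the single TiO2-H array alone, and 5 and 0 were lowered on the single Sham array alone. Over all targets, 140 of 532 and 100 of 337 increases were raised on the single TiO2-H array alone, and 37 and 14 were lowered on the single Sham array alone. Both sets of targets thus had single arrays standing apart behind a larger share of the decreases than of the increases.

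**Figure D5:**
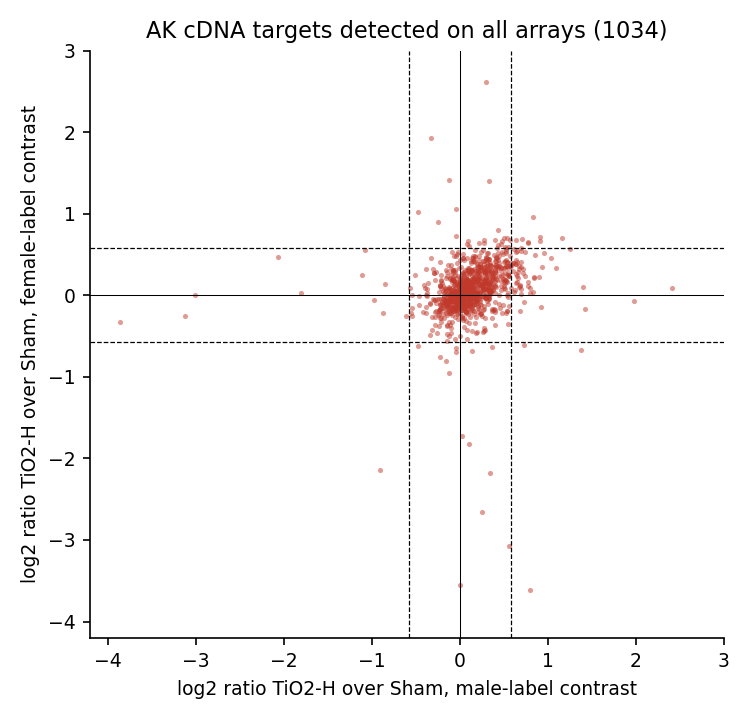
Log2 ratio of TiO2-H over Sham in the male-label contrast (x axis) and the female-label contrast (y axis) for the 1034 AK targets detected on all 4 arrays, 1 point per target; dashed lines mark 1.5-fold and 0.67-fold. Most points lie near 0 and lean to the upper right, 8 lie past 1.5-fold on both axes and 1 past 0.67-fold on both, and the extreme points lie along 1 axis only.

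Detection patterns leaned the same way. Both TiO2-H arrays and neither Sham array detected 74 AK targets (2.96%), where 1.79% of all targets, 1.13% of RefSeq mRNAs, 2.58% of targets named by a chromosomal region and 2.21% of Ensembl-only targets had this pattern. Both Sham arrays and neither TiO2-H array detected 2 AK targets (0.0801%), where 0.0862% of all targets did so. Since a dim spot gives no level, each is read as a bound, the mean of the detecting arrays over the lowest detected signal or the dim signal itself, whichever is higher. Of the 74, 65 had a bound above 1, the median bound was 1.25 and 14 reached 1.5-fold, so that most lay close to the limit of detection. With the common limit of detection given above, 56 of 2497 AK targets had the first pattern. So did 766 of all 55681 targets and 241 of 26536 RefSeq mRNAs. Without that limit, the counts were 74, 996 and 301. The second pattern was held by 2 AK targets with the limit, and its count over all targets was not computed.

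AK042233 had the highest bound of these, with the mean of the TiO2-H arrays at least 3.51-fold higher. Each bound compares means over both arrays of an exposure, so a single array can lie below it. Its signals were 66.7 on the male-label TiO2-H array and 280 on the female-label TiO2-H array, and 28.4 and 42.6, not well above background, on the male and female Sham arrays. AK139344 had 54.6 and 71.9 on the TiO2-H arrays and 37.9 and 34.2 on the Sham arrays, and AK045831 had 77.4 and 51.2 against 33.8 and 36.2. Among targets with a symbol (named after their values were seen), AK041682 of Pds5b, a regulator of cohesin, had 70.6 and 44.5 on the TiO2-H arrays. Their mean was at least 1.67-fold higher than on the Sham arrays. AK164818 of Slc44a1, a choline transporter, had 59.7 and 53.6, with a mean at least 1.62-fold higher.

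The reverse pattern was shown by AK046115, named A930016O22Rik and listed as a long noncoding RNA, and by AK164319, named Foxp2, the gene of a transcription factor of the developing brain. AK046115 had 59.4 on the male Sham array and 610 on the female Sham array, and 6.89 and 5.39, not well above background, on the TiO2-H arrays. The mean of the TiO2-H arrays was at least 7.86-fold below that of the Sham arrays. AK164319 had 98.8 and 132 on the Sham arrays and 6.80 and 5.34 on the TiO2-H arrays, with a mean at least 4.71-fold lower. The Sham arrays differed from each other by much more for AK046115 than for AK164319.

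The 69 targets with a symbol carried 62 accessions. By the RefSeq table, 35 targets belonged to long noncoding RNAs, 31 to protein-coding genes, 2 to a pseudogene and 1 to a transcribed pseudogene. Only 15 of the 69 were detected on all arrays, 7 of them of long noncoding RNAs and 7 of protein-coding genes, and 2 were detected on none. The gene lists drawn up by symbol could thus hardly be filled. Of the transmitter receptors and synapse genes, 2 targets were on the array, and 1, AK048022 of Grik2, was detected on all arrays. Of the chromatin genes 1 target, AK163481 of Kdm5b, was present and detected. No AK target with a symbol belonged to the ion channels, the adhesion and guidance genes or the RNA binding and splicing genes, and the 3 noncoding RNA hosts, 1 transcription factor and 1 second messenger gene were not detected on all arrays.

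Several targets with a symbol were seen on 1 array only. AK054182 of Esr1, the gene of estrogen receptor alpha, had 179 on the male-label TiO2-H array and between 7.31 and 10.06 on the others. AK082335 of Adam22, a synaptic receptor of Lgi proteins, had 93.2 there and between 9.92 and 19.6 on the others. AK140479 of Dnah6, an axonemal dynein gene, had 134 on the male Sham array and between 4.64 and 6.30 on the others. AK015935, named Orly, is a long noncoding RNA of chromosome Y in the gene table. The brighter of its 2 targets had 38.2 on the male Sham array and 47.7 on the female-label TiO2-H array, and 16.0 and 25.7, not well above background, on the female Sham array and the male-label TiO2-H array. Its other target was detected on the female-label TiO2-H array alone, at 30.3. In all, 14 AK targets (0.561%) were detected on the male Sham and female-label TiO2-H arrays only, as were 0.386% of all targets. The Y-linked gene Uty had this pattern, whereas Eif2s3y and Ddx3y were also detected on the female Sham array.

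A gene could be compared between its AK and RefSeq probes in 6 cases, all from the study's list. AK133213 of Gm13547 had 363 on the male Sham array and 61.5, 92.7 and 93.2 on the others, while its RefSeq probe had 91.8, 98.5, 96.0 and 102. AK002639 of Memo1, a regulator of cell motility, had 63.4, 77.5, 108 and 107, with log2 ratios of 0.67 and 0.33, while its RefSeq probe had 2739, 2659, 2911 and 3128, with ratios of −0.01 and 0.10. AK140373 of Insyn2a, a gene of the inhibitory synapse, had 130, 60.4, 65.8 and 97.5, while its RefSeq probe had 1678, 1657, 1690 and 1732. In these 3 genes the RefSeq probe varied less over the 4 arrays than the AK probe. The AK targets were listed for their difference on the male and male-label arrays, and the RefSeq probes were not chosen that way. The choice thus favored this outcome. The median log2 ratio over the 6 AK targets was −0.99 and 0.16 in the male-label and female-label contrasts, and that of the RefSeq probes −0.02 and 0.05.

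The error of a single probe could be read from AK053689 and AK018620, which were each spotted 10 times on every array. AK053689 had geometric means of 4128 ± 0.05 (SD of log2 signal over spots) on the male Sham array, 4083 ± 0.04 on the female Sham array, 5137 ± 0.04 on the male-label TiO2-H array and 5228 ± 0.02 on the female-label TiO2-H array. Its log2 ratios were 0.22 and 0.23, larger than the spread between spots, and the limma log2 difference was 0.22 ± 0.04 (SE, adjusted p = 0.222). AK018620 had 69.7, 69.5, 84.3 and 87.3, with SDs between 0.13 and 0.22 on the log2 scale and log2 ratios of 0.18 and 0.20. For both targets the TiO2-H arrays lay above the Sham arrays and the arrays of the same exposure were close. Spots on 1 array share their RNA, so this spread leaves out the animals and the labeling.

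Different targets of the same accession did not always give the same ratio. Of the 35 accessions with several targets, 7 had at least 2 detected on all arrays, and their log2 ratios differed by a median of 0.30 in the male-label contrast and 0.25 in the female-label contrast. AK017177, named 5033417F24Rik and listed as a long noncoding RNA, differed most. Its brighter target had 203, 217, 243 and 226, whereas its dimmer target had 41.5, 43.0, 117 and 50.4, high on the male-label TiO2-H array only. AK090034, named Gm9732 and also listed as a long noncoding RNA, had 4 targets, of which 3 were detected on all arrays. Its brightest target had 315, 352, 342 and 340, with log2 ratios of 0.02 and −0.18. Another had 44.7 and 67.5 on the male and female Sham arrays and 79.6 and 48.3 on the TiO2-H arrays, with ratios of 0.73 and −0.61.

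The targets were divided into blocks of accession numbers, which follow the order of deposit. Detected on all arrays were 35.6% of 716 targets from AK002 to AK021, 43.8% of 728 from AK028 to AK054, 45.2% of 385 from AK075 to AK090 and 42.4% of 651 from AK131 to AK173. The median log2 ratio in these blocks was 0.07, 0.14, 0.12 and 0.09 in the male-label contrast, and 0.05, 0.11, 0.07 and 0.03 in the female-label contrast. All of these medians were above 0. The block from AK028 to AK054 was the highest under both labels and was also the dimmest of the 4, with a median scaled log2 signal of −2.42. A further 17 targets lay outside these blocks. Of those, 10 were detected on all arrays, with a median scaled log2 signal of 0.77 and median log2 ratios of 0.03 and 0.03.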

How the data were processed

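Gene expression was measured on 4 one-color arrays, 1 per group, and the scanner output of each was deposited by the authors as intensity. Their software, Agilent Feature Extraction 10.10.1.1, had subtracted the background and replaced spots not above it by small positive values, without scaling between arrays. The deposited value table held the same intensity for every probe, within 0.0001 on the log2 scale. Outlier spots (138 to 181 per array) and control spots were left out, spots of a probe were averaged, and the log2 of the processed intensity minus the log2 of the array's 75th percentile was used. A probe with several spots counted as detected where more than 0.5 of them were well above background. No spot was saturated. Among 399 probes with 10 spots, the median SD of log2 signal between spots was 0.064 to 0.067 where detected and 0.20 to 0.37 where dim. The number of arrays limits the precision, and arrays stand for pools. The p-values thus measure the spread between pools of the same dams only, and not between litters.

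TiO2-H was tested against Sham with limma 3.58.1 in R 4.3.3, two-sided, with Benjamini-Hochberg adjustment over all 29406 probes detected on all arrays. Python 3.11.15, numpy 2.4.6, pandas 2.3.3 and matplotlib 3.10.9 were used elsewhere, and the steps were tested on simulated data. The targets, lists and tests were chosen with earlier results of these data known. Targets were named by rule: the 6 brightest, the 6 largest increases and decreases common to both labels, the 3 largest each way within a label, the 3 brightest per detection pattern, the 4 genes whose AK and RefSeq probes differed most, and up to 4 detected members of each gene list. Others are marked as chosen after their values were seen, or are shown for their symbol, their spots or their accession. Gene lists, library tissues and name classes needed gene names, which the files lack, so only the lists were tried, on 69 targets. Alternatives were no scaling, quantile normalization, the percentile over detected probes, normexp (offset 50) on the median signals, the deposited table, outlier spots kept, 1 probe per accession, a 2-fold threshold, other filters, crossed sex labels, sex terms and each array left out. A common limit of detection, crossed labels for the medians and a limit on signal for them were added after seeing the data.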

Additional observations from a re-analysis of the deposited data

Results flagged for a closer look

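For 3 AK targets, TiO2-H lay on opposite sides of Sham past the fold thresholds under the 2 sex labels, and with 1 array per group the difference was not tested. AK145592 had log2 ratios of 0.79 in the male-label and −3.61 in the female-label contrast, where the female Sham array alone was high, at 769. AK015366 had 1.37 and −0.67, with 254 on the male-label TiO2-H array and 91.7, 117 and 80.2 on the male Sham, female Sham and female-label TiO2-H arrays. AK090034 of Gm9732 had 0.73 and −0.61 for 1 of its 3 detected targets, while the other two did not pass both thresholds. This target was high on the female Sham array and the male-label TiO2-H array, the arrays on which Xist was high. Gm9732 lies on chromosome 14 in the gene table, and the brightest target of the accession had 315, 352, 342 and 340. No AK target had the reverse combination, and of all targets 0.0748% had the first and 0.0340% the second.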

How the results depend on the processing

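Over the alternatives, 116 values were computed, of which 36 moved by more than a set limit. With no replicates, that limit was 1.5 times for a count and 0.04 for a median log2 value (the AK median between the Sham arrays). For a share detected it was a binomial interval that takes targets as independent. For the difference between AK and RefSeq probes of a gene it was the SD over genes. Under the last limit the median AK minus RefSeq difference went from −0.92 to −1.51 (male label) and from 0.04 to 0.39 (female label). The second values used only genes with 1 detected probe of each kind, namely Atr, Gm13547, Memo1 and Insyn2a. Their differences ran from −3.17 to 0.68 (male label) and from −0.15 to 0.63 (female label). The median log2 ratio of AK targets stayed above 0 in all 18 alternative values over both contrasts. It ranged from 0.065 to 0.20 in the male-label contrast and from 0.026 to 0.20 in the female-label contrast. The deposited table, which held the same intensities, and the kept outlier spots gave the main medians again and add no check. Pairing across the labels regroups the same arrays and adds no separate check on the medians. The deposited table adds no check to the limma settings either. No AK target passed an adjusted p of 0.05 in limma in any of 16 settings, including each array left out in turn, and the lowest adjusted p ranged from 0.0809 to 0.382.

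Without scaling, 116 AK targets were at or above 1.5-fold in the male-label contrast, 80 were at or above it and 11 at or below 0.67-fold in the female-label contrast, 27 were above under both, and the medians were 0.20 and 0.20. All targets then shifted by 0.10 and 0.14, so that AK targets stood 0.10 and 0.06 above them, as with scaling. Under normexp, 16 and 8 AK targets were at or above 1.5-fold, 0 and 0 were past the thresholds under both labels, and the medians were 0.065 and 0.026. Its offset draws the ratios of dim targets toward no change, as given above. With a 2-fold threshold, 9 were above and 7 below in the male-label contrast, 6 above and 8 below in the female-label contrast, and 0 and 0 under both. With arrays paired across the labels, 19 were below against the male Sham array. With targets detected on at least 1 array and dim signals raised to the lowest detected one, which changes filter and values together, the counts above and below were 120 and 63 (male label) and 69 and 50 (female label). Without a filter they were 361, 145, 276 and 557, which include ratios of the small values given to spots not above the background. In the female-label contrast decreases outnumbered increases here and with the 2-fold threshold. Among targets with a mean scaled log2 signal of −2 or above, the median in the male-label contrast was 0.066. Under the software's flag for positive and significant spots, 67.2%, 66.3%, 72.4% and 74.4% of AK targets were detected (male Sham, female Sham, male-label TiO2-H, female-label TiO2-H), and with the common limit the last array had 50.0%. With dim targets included, the median scaled log2 signal was −4.97 for AK and −1.32 for RefSeq mRNAs, and with NR accessions added the RefSeq median was 0.20. Of these alternatives, only the common limit of detection had a count over all targets, given above with the detection patterns. The other AK counts have no share of the array beside them. The cause of these changes was not tested.

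Pairing by replicate number was not possible, because each group had 1 array. Limma fits with the sex label as a block, as labelled or crossed within TiO2-H, gave lowest adjusted p-values of 0.327 and 0.374 for AK targets.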
